A study of Homo sapiens with 6 samples.

Results

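A set of 50 genes of the cell cycle and of DNA replication was followed by RNA-seq in U251, an established human glioblastoma line. The genes were chosen by name, and all 50 symbols were found among the 58735 genes of the deposited table. Of these, 27 act mainly at the G1/S transition and in S phase (cyclins D and E, E2F factors, the MCM helicase, nucleotide supply), and 23 act mainly in G2 and mitosis (cyclins A and B, mitotic kinases, spindle and kinetochore genes). Subconfluent U251 cells received 10 ng/mL of recombinant human TNF-α, an inflammatory cytokine, for 24 h (TNF-α group, n = 3), or the same volume of sterile deionized water (NC group, n = 3). All 6 samples came from this single line, no genetic change was stated for either group, and the 3 samples of a group were described as independent biological replicates. The comparison addressed whether this dose, which the study used in its work on the growth of glioblastoma cells, was accompanied by a change in the transcripts of the division cycle.

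In dividing cells, cyclin D bound to CDK4 or CDK6 and then cyclin E bound to CDK2 phosphorylate the RB family and free E2F factors, which switch on the genes that license and copy DNA. Afterwards, cyclins A and B with CDK1 and the factors MYBL2 and FOXM1 drive a later wave of genes for chromosome segregation, many of which carry CCAAT boxes and a CHR element (cell cycle genes homology region) in their promoters. RNA was taken from whole cultures, so that fewer cells in a phase and less RNA per cell in that phase cannot be told apart.

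Values are FPKM, fragment counts scaled to gene length and to a library size, as computed by the authors. The libraries held from 31992167 to 37897044 reads in genes, and TNF-α replicates 2 and 3 stood apart from the other 4. In these libraries 16.6% and 17.9% of the reads fell in genes above 8 kb, where the others had 28.8% to 29.1%, and the 86 ribosomal protein genes took 8.11% and 6.96%, against 2.90% to 3.22%. Results are therefore given for TNF-α replicate 1 and for replicates 2 and 3 as well as for all 6 libraries. Counts of genes above or below NC hold for the FPKM scale, since as TPM the median log2 fold change of all genes was -0.42. Of the markers of glioma and astrocytic cells, VIM, CD44, TNC, SOX2 and NES were expressed in every library, as were SOX9, SLC1A3, FABP7 and GFAP, whereas S100B and CHI3L1 were at or near 0. GFAP, the intermediate filament of astrocytes, was the 1 gene of all lists that passed the test described below, and it fell from 8.24 ± 1.19 to 2.19 ± 0.537 FPKM (SD, n = 3, log2 fold change -1.54, limma adjusted p = 0.0210). The leukocyte marker PTPRC had an FPKM of 0 in all 6 libraries, and the 7 leukocyte markers summed to between 0.649 and 2.08 FPKM. The 6 neuron markers summed to 6.378 to 6.675 FPKM in NC and to 6.018, 3.21 and 3.639 in TNF-α replicates 1 to 3. The 5 endothelial markers summed to 6.275 to 6.837 FPKM in NC and to 6, 2.201 and 2.506 in TNF-α. Of these lists, 2 neuron genes and 1 endothelial gene could be tested.

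Most of the 50 genes were strongly expressed in NC cells. The median NC level was 26.5 FPKM for the G1/S genes and 60.0 FPKM for the G2/M genes, compared with 6.91 FPKM over the 12136 genes tested. The highest NC means belonged to CDC20, the activator of the anaphase-promoting complex, with 198 ± 11.2 FPKM (SD, n = 3), to cyclin B1 (CCNB1) with 167 ± 3.04, to cyclin D1 (CCND1) with 148 ± 5.92, to the spindle assembly factor TPX2 with 147 ± 5.08, and to topoisomerase II alpha (TOP2A), which untangles sister DNA, with 137 ± 4.11. At the other end, cyclin E2 (CCNE2) stood at 3.19 ± 0.211 FPKM, and cyclin D2 (CCND2) had 2 reads in 1 NC library and none in the other 5, so that it was the 1 gene of the 50 that could not be tested. Among the D cyclins the order was therefore CCND1, CCND3 (36.3 ± 1.86) and CCND2, and these levels did not overlap between genes. CDK4 (20.4 ± 1.21) and CDK6 (20.6 ± 0.736), the partners of the D cyclins, did not differ beyond their spread.

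Genes that reached an FPKM of 1 in 3 or more libraries were tested with limma on log2(FPKM + 1), and a change was called at a Benjamini-Hochberg adjusted p under 0.05 over all genes tested. None of the 49 tested genes passed, with a background of 1.01% of all genes (0.717% higher, 0.297% lower). The smallest adjusted p from limma was 0.136 (KIF20A). At an unadjusted p under 0.05 there were 10, all lower in the TNF-α group (CCNE2 and E2F8 of the G1/S genes and CCNA2, FOXM1, BUB1, BUB1B, TTK, CENPF, KIF20A and TOP2A of the G2/M genes), against a background of 11.9% of all genes on that side. No member was higher at that level, where the background was 12.3%. A count-based fit, limma-voom on the reads recovered from the FPKM, also called 0 of the 49. The median log2 fold change was 0.06 over the G1/S genes, -0.15 over the G2/M genes and 0.04 over all genes tested. The G1/S median changed sign with the scaling (-0.44 as TPM, -0.22 after quantile normalization, -0.21 with limma-voom), where the median of all genes was -0.42, 0.01 and -0.21. Relative to the median of all genes, G1/S was at 0.02 in the main fit and at -0.02, -0.23 and 0.01 in these 3 settings. G2/M was at -0.19 in the main fit and at -0.24, -0.74 and -0.21 in them. Within both phases, however, single genes lay far to either side of 0, from -0.997 to 0.71 in G1/S and from -1.18 to 0.91 in G2/M.

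**Figure D1:**
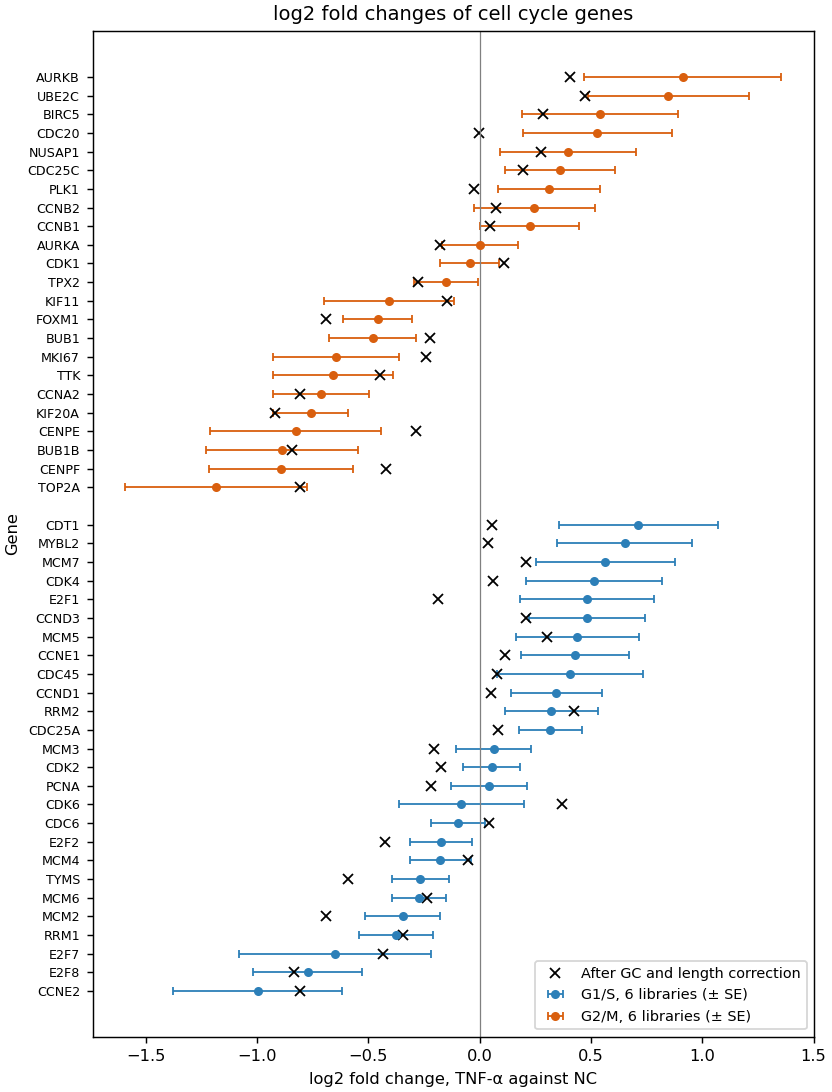
The log2 fold change of the TNF-α group against the NC group on the log2(FPKM + 1) scale, with its standard error, for the 26 tested G1/S genes (blue) and the 23 G2/M genes (orange), sorted within each phase. Crosses give the same value after a correction for GC content and length that was fitted over all genes. Among the crosses, CCNE2, E2F8, CCNA2, KIF20A, BUB1B and TOP2A lie at or below -0.80.

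In the heat map of the 6 libraries, the 3 NC libraries were close to each other for every gene, TNF-α replicate 1 lay slightly below them for most genes, and TNF-α replicates 2 and 3 were alike and spread widely in both directions. In TNF-α replicate 1, 34 of the 49 genes were below every NC library, where 34.3% of all genes were, and 6 genes were above (CCND1, CDC25A, CDK6, E2F7, CENPE and KIF11), where 30.5% of all genes were. The median difference of this library from the NC mean was -0.11 for the G1/S genes, -0.15 for the G2/M genes and -0.01 for all genes. In TNF-α replicates 2 and 3, 25 genes were above every NC library in both (background 46.1%) and 21 were below (background 40.8%), which leaves 3 genes, CDK1, CDC6 and E2F2, that were neither.

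**Figure D2:**
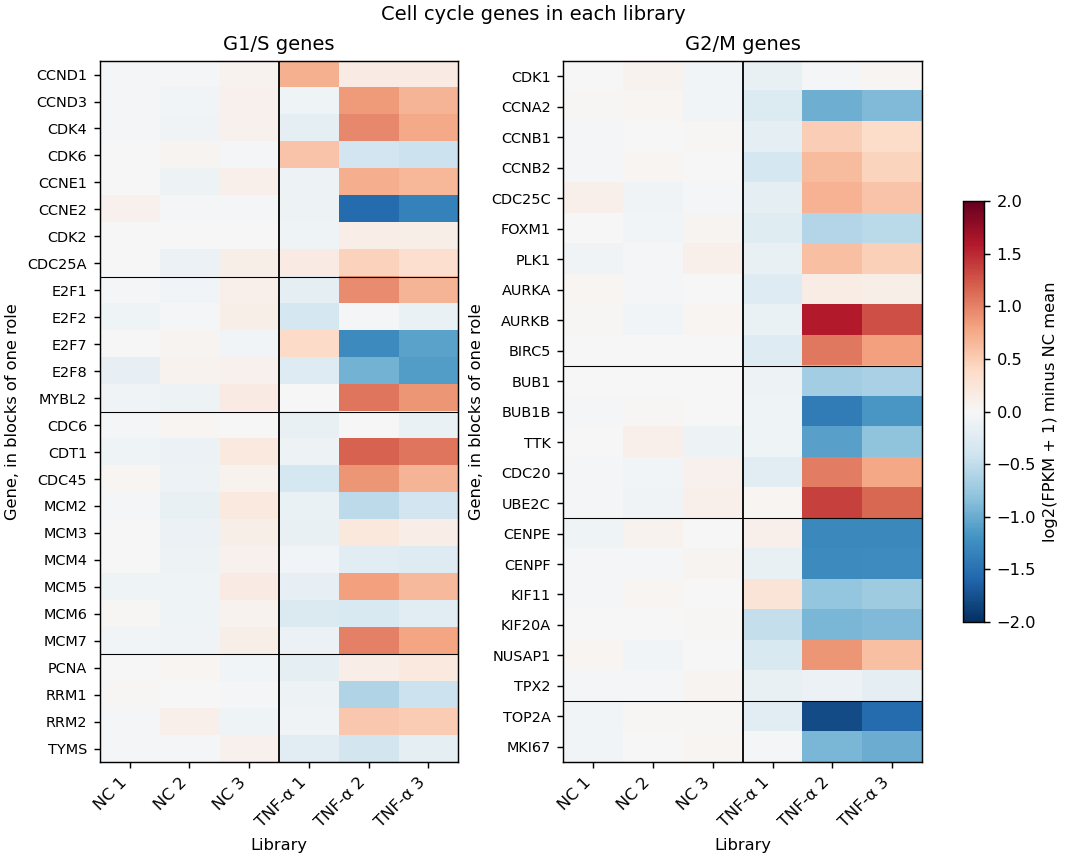
Difference of log2(FPKM + 1) from the NC mean in each of the 6 libraries (columns) for the 49 tested genes (rows), split by phase and, with thin lines, by role. TNF-α replicate 1 is pale, with CCND1 and CDK6 as its strongest reds and KIF20A as its strongest blue, whereas TNF-α replicates 2 and 3 share strong reds (AURKB, UBE2C, CDT1) and strong blues (TOP2A, CCNE2, CENPF, CENPE).

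The cyclins and kinases of G1 had differences of both signs. CCND1, which starts the cycle in response to growth signals, was at 144, 146 and 155 FPKM in the NC libraries and at 243, 166 and 166 FPKM in TNF-α replicates 1 to 3. All 3 TNF-α libraries were above all NC libraries, and replicate 1 was far above the other two (log2 fold change 0.35, SE 0.21, limma adjusted p = 0.239). CDC25A, the phosphatase that removes inhibitory phosphates from CDK2, was the only other gene of the 49 whose TNF-α values lay wholly above the NC values, with 16.5, 15.3 and 18.2 FPKM in NC and 18.8, 23.2 and 21.2 FPKM in TNF-α (log2 fold change 0.32, SE 0.14, limma adjusted p = 0.195). Over all genes, 14.8% had such non-overlapping higher values. CDK6 was split by library, with 20.3, 21.4 and 20.0 FPKM in NC, then 30.8 in the first TNF-α library and 15.6 and 15.0 in the others.

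CCND3, CDK4 and CCNE1 showed the opposite split to CDK6. CCND3 was at 34.9 to 38.4 FPKM in NC and at 34.2, 66.1 and 58.6 FPKM in TNF-α replicates 1 to 3. CDK4 was at 19.4 to 21.8 and then at 17.9, 40.7 and 35.3, and cyclin E1 (CCNE1) at 6.37 to 7.52 and then at 6.38, 12.1 and 11.6. Of the exon bases of CDK4, 43.2% overlap TSPAN31, and since the use of strand in counting was not stated, reads of the overlapping part cannot be assigned to one gene. CDK2, the partner of the E cyclins, was nearly flat, with 19.9 to 20.1 FPKM in NC and 18.8, 22.1 and 21.8 FPKM in TNF-α. Of the CDK2 exon bases, 16.8% overlap other genes. CCNE2 went the other way to CCNE1, with 3.43, 3.06 and 3.07 FPKM in NC and 2.91, 0.439 and 0.637 in TNF-α replicates 1 to 3 (log2 fold change -0.997, SE 0.38, limma adjusted p = 0.195), so that the E cyclins lay on opposite sides of NC in replicates 2 and 3. A share of 37.1% of the CCNE2 exon bases overlaps INTS8 or a further gene.

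In replicates 2 and 3 the factors of the G1/S wave lay on both sides of NC. E2F1, an activator of S phase genes, had 42.1, 41.6 and 46.5 FPKM in NC and 38.2, 84.6 and 70.2 FPKM in TNF-α replicates 1 to 3 (log2 fold change 0.48, SE 0.30, limma adjusted p = 0.252). E2F2, also an activator, had 6.88, 7.24 and 8.04 FPKM in NC and 5.53, 7.16 and 6.66 in TNF-α (log2 fold change -0.17, SE 0.14). MYBL2, which acts with the MuvB core on G2/M genes, was at 59.8 to 72.5 FPKM in NC and at 64.4, 137 and 119 in TNF-α. The atypical factors E2F7 and E2F8, which repress E2F targets late in S phase, were low in replicates 2 and 3. E2F8 was at 6.72, 8.04 and 8.204 FPKM in NC and at 6.25, 3.48 and 2.96 in TNF-α, below NC in all 3 libraries (log2 fold change -0.77, SE 0.25, limma adjusted p = 0.195). E2F7 was at 14.3 to 15.4 FPKM in NC, then at 19.7, 5.57 and 6.56 in TNF-α, and thus changed sides between libraries.

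The subunits of the replicative helicase had differences of both signs. MCM2 to MCM7 form a single ring of 6 subunits, and their log2 fold changes ranged from -0.34 (MCM2, SE 0.17) to 0.56 (MCM7, SE 0.31), with MCM3, MCM4, MCM5 and MCM6 at 0.06, -0.18, 0.44 and -0.27. In TNF-α replicate 1 alone all 6 lay below the NC mean, by -0.29 (MCM6) to -0.05 (MCM4) on the log2 scale. MCM5 had 19.1 to 22.9 FPKM in NC and 18.1, 36.7 and 32.3 in TNF-α replicates 1 to 3, and MCM2, 23.6% of whose exon bases overlap other genes, had 25.4 to 32.6 in NC and 25.9, 19.5 and 21.6 in TNF-α. MCM7 had 122, 122 and 139 FPKM in NC and 118, 257 and 222 in TNF-α replicates 1 to 3. MCM6, by contrast, had 22.96, 21.2 and 23.6 FPKM in NC and 18.3, 18.0 and 19.2 in TNF-α, which made it the gene of the ring with the most even values across the TNF-α libraries and the one whose groups did not overlap (limma adjusted p = 0.195). CDT1, which loads the ring on origins, was at 29.9 to 37.3 FPKM in NC and at 30.2, 74.5 and 69.2 in TNF-α, the largest positive log2 fold change of the G1/S genes (0.71, SE 0.36, limma adjusted p = 0.200). Its partner CDC6 was between 21.9 and 24.9 FPKM in all 6 libraries. CDC45, which joins the ring to form the active helicase, was at 13.8 to 15.8 FPKM in NC and at 11.5, 28.4 and 24.6 in TNF-α.

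**Figure D3:**
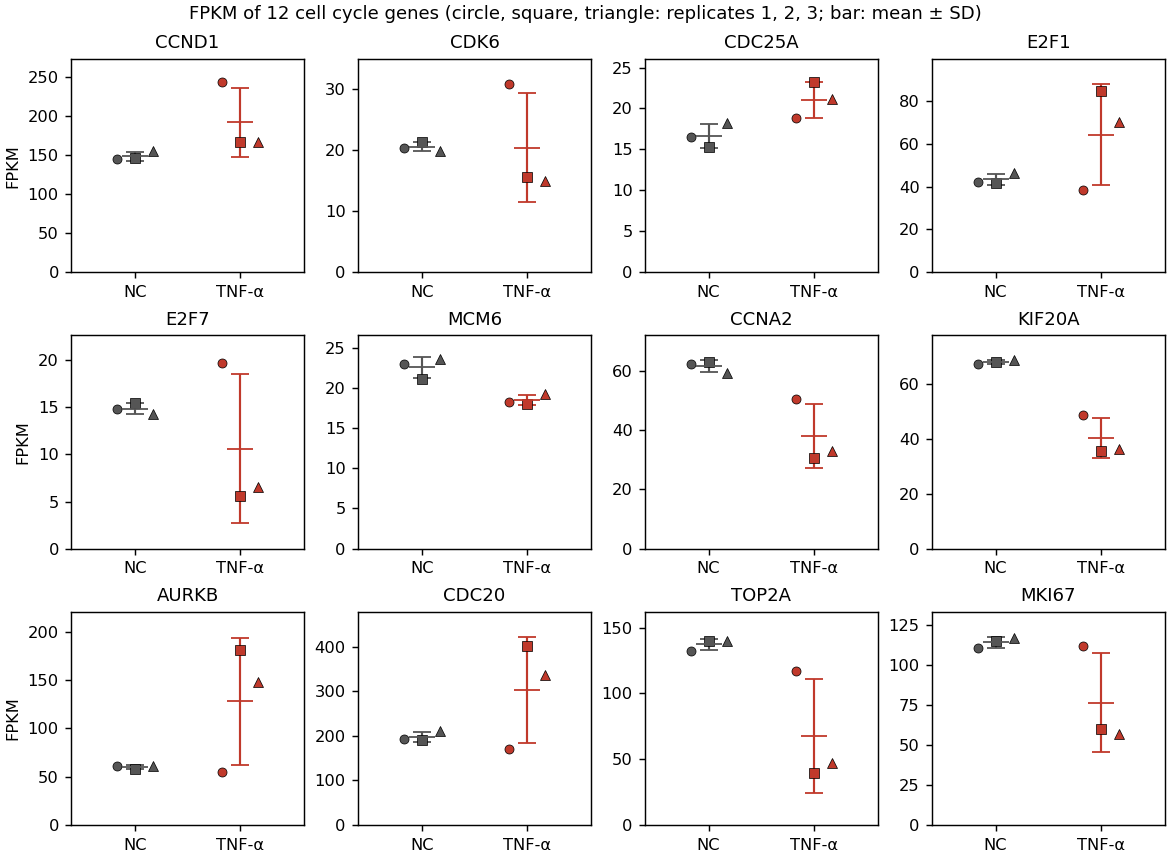
FPKM of 12 of the genes in each library, on axes that start at 0. Grey symbols are NC, red symbols are TNF-α, the circle, square and triangle are replicates 1, 2 and 3, and the bar gives the mean and SD (n = 3). In CCND1, CDK6, E2F7 and MKI67 the red circle (replicate 1) lies well above the other red symbols, and in E2F1, AURKB and CDC20 it lies well below them. In MCM6, CCNA2, KIF20A and TOP2A all red symbols lie below all grey ones.

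At the fork, PCNA, the sliding clamp of the polymerases, was at 118 to 126 FPKM in NC and at 106, 133 and 140 in TNF-α (log2 fold change 0.04, SE 0.17). The subunits of ribonucleotide reductase, which makes deoxynucleotides, lay on opposite sides of NC in replicates 2 and 3. RRM1 was at 42.4 to 43.9 FPKM in NC and at 39.9, 28.1 and 31.8 in TNF-α, and RRM2 at 50.03 to 56.8 in NC and at 50.1, 77.5 and 75.3 in TNF-α. Of the RRM2 exon bases, 20.2% overlap another gene. Thymidylate synthase (TYMS) was below NC in all 3 TNF-α libraries, with 28.0 to 30.7 FPKM against 24.5, 22.1 and 25.1, though 46.6% of its exon bases overlap ENOSF1 or TYMSOS.

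Promoters of the G1/S genes often held an E2F motif. Promoter sequence from RefSeq on GRCh38.p14 was matched for 37 of the 50 genes (20 G1/S, 17 G2/M), and the 250 bases before the start of the transcript were searched on both strands. An E2F motif (TTTCCCGC, TTTCGCGC, TTTGCCGC or TTTGGCGC) was present in 9 of 20 G1/S promoters (45%) and in 1 of 17 G2/M promoters (5.88%), compared with 2.79% of all 27305 promoters. At least 2 CCAAT boxes (CCAAT, or ATTGG on the other strand) were found in 50% of the G1/S and 52.9% of the G2/M promoters and in 10% of all. The 3 G1/S genes printed here differ in the libraries. CDC25A was higher in all TNF-α libraries, E2F1 was higher in replicates 2 and 3 alone, and MCM6 was lower in all. Each holds both motifs, shown in capitals in the 200 bases up to the start, 5′ to 3′ on the strand of the gene. Where TTTGGCGC and TTTCGCGC overlap on opposite strands, as in MCM6, they appear as a single run of capitals.
CDC25A (chr3:48188418-48188617, minus strand): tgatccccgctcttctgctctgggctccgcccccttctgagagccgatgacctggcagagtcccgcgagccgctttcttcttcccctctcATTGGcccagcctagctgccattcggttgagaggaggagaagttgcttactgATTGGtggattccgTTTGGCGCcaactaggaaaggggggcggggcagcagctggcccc
E2F1 (chr20:33686386-33686585, minus strand): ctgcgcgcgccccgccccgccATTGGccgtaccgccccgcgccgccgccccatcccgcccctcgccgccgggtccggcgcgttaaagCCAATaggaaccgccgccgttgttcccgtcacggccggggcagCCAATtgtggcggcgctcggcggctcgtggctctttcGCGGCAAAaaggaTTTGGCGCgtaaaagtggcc
MCM6 (chr2:135876444-135876643, minus strand): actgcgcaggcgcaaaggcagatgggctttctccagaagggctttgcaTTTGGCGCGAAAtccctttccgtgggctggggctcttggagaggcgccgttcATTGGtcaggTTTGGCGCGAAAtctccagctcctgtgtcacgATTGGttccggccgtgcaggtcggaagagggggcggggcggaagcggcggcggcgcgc

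Among the cyclins and kinases of G2 and mitosis, cyclin A2 and FOXM1 were low in every TNF-α library and the B cyclins were not. CCNA2, the partner of CDK2 in S phase and of CDK1 in G2, had 62.4, 63.1 and 59.3 FPKM in NC and 50.6, 30.7 and 32.9 FPKM in TNF-α replicates 1 to 3 (log2 fold change -0.71, SE 0.22, limma adjusted p = 0.195). FOXM1, the forkhead factor of the G2/M wave, had 64.3, 62.8 and 67.8 FPKM in NC and 54.9, 42.8 and 44.3 in TNF-α (log2 fold change -0.46, SE 0.16, limma adjusted p = 0.195). Of the FOXM1 exon bases, 15.9% overlap ITFG2. Neither gene overlapped between groups, which was the case on the lower side for 13 of the 49 genes and for 15.3% of all genes, and on either side for 15 of the 49 and 30.1% of all. CCNB1 was at 164 to 170 FPKM in NC and at 147, 236 and 216 in TNF-α, and CCNB2 at 46.5 to 48.2 and then at 36.8, 73.6 and 64.8, so that both were below NC in replicate 1 and above it in replicates 2 and 3. CDK1 itself, the kinase that carries cells into mitosis, was at 36.0 to 39.4 FPKM in NC and at 33.6, 37.1 and 38.5 in TNF-α (log2 fold change -0.04, SE 0.13).

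AURKB, the kinase of the chromosomal passenger complex, and its partner survivin (BIRC5) gave a like pattern. AURKB was at 61.0, 57.5 and 61.5 FPKM in NC, then at 54.6, 181 and 148 in TNF-α, which gave the largest positive log2 fold change of the 49 genes with one of the largest errors (0.91, SE 0.44, limma adjusted p = 0.197). BIRC5 was at 63.4 to 64.4 FPKM in NC and at 53.3, 134 and 114 in TNF-α. PLK1, which acts in mitotic entry and spindle assembly, was at 52.5 to 59.1 and then at 49.5, 84.4 and 77.5, and CDC25C, the phosphatase that activates CDK1, at 7.46 to 8.49 and then at 6.81, 13.3 and 12.1. AURKA, the centrosomal kinase, was at 107 to 112 FPKM in NC and at 91.6, 121 and 118 in TNF-α (log2 fold change 0.00, SE 0.17). All 10 genes of this role were below every NC library in TNF-α replicate 1 (34.3% of all genes), and 7 of the 10 were above every NC library in replicates 2 and 3 (46.1% of all genes).

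The checkpoint kinases BUB1, BUB1B and TTK were low in replicates 2 and 3. BUB1B had 35.1, 36.3 and 36.0 FPKM in NC and 33.5, 12.9 and 15.3 in TNF-α replicates 1 to 3 (log2 fold change -0.89, SE 0.34, limma adjusted p = 0.195). BUB1 had 34.9 to 35.04 FPKM in NC and 32.6, 21.1 and 22.0 in TNF-α, and TTK had 20.4 to 23.6 in NC and 20.7, 9.78 and 12.1 in TNF-α. CDC20 and the ubiquitin-conjugating enzyme UBE2C, which drive anaphase, were high in the same replicates. UBE2C had 110, 106 and 120 FPKM in NC and 114, 290 and 248 in TNF-α (log2 fold change 0.85, SE 0.36, limma adjusted p = 0.195), and CDC20 had 193, 190 and 211 FPKM in NC and 171, 402 and 338 in TNF-α.

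KIF20A, a kinesin of cytokinesis, was the gene with the smallest p of the 49, and it was singled out after its values were seen. It had 67.2, 67.7 and 68.6 FPKM in NC and 48.5, 35.6 and 36.2 FPKM in TNF-α replicates 1 to 3, so that all 3 TNF-α libraries were well below a narrow NC range (log2 fold change -0.76, SE 0.17, limma adjusted p = 0.136). The very long kinetochore genes CENPF and CENPE were far lower in replicates 2 and 3 than in replicate 1. CENPF had 51.6 to 54.5 FPKM in NC and 47.7, 21.3 and 21.4 in TNF-α (log2 fold change -0.89, SE 0.32, limma adjusted p = 0.195), and CENPE had 13.7 to 15.2 in NC and 15.5, 5.35 and 5.35 in TNF-α. The spindle motor KIF11 had 49.3 to 51.8 FPKM in NC and 60.4, 29.3 and 30.5 in TNF-α, and the microtubule-binding NUSAP1, 62.2% of whose exon bases overlap another gene, had 5.67 to 6.11 in NC and 4.62, 11.7 and 9.55 in TNF-α. TPX2 differed little, with 142 to 152 FPKM in NC and 132, 135 and 128 in TNF-α.

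TOP2A and MKI67, which are often read as proliferation markers, did not behave alike in replicate 1. TOP2A had 133, 140 and 140 FPKM in NC and 117, 39.1 and 46.8 in TNF-α replicates 1 to 3, the largest negative log2 fold change of the 49 genes (-1.18, SE 0.41, limma adjusted p = 0.195). MKI67, which codes for the Ki-67 protein, had 111, 115 and 117 FPKM in NC and 112, 60.1 and 57 in TNF-α (log2 fold change -0.64, SE 0.28, limma adjusted p = 0.195). In replicate 1 MKI67 was thus within the NC range and TOP2A below it, while in replicates 2 and 3 both were far below.

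Promoters of the G2/M genes often held a CHR. The CHR letters (TTTGAA, or TTCAAA on the other strand) were present in 8 of 17 G2/M promoters (47.1%) and in 1 of 20 G1/S promoters (5%), compared with 13.6% of all promoters. In BUB1B, KIF11, CCNB2, MKI67 and PLK1 the nearest CHR began 23 to 29 bases before the start. In CDC20, TOP2A and CDK1 it began farther away, at 65, 151 and 161 bases. CCAAT was present in 82.4% of the G2/M promoters, in 55% of the G1/S promoters and in 33% of all. The promoters printed here are of genes that went in different directions. CCNB2 and CDC20 were high in replicates 2 and 3, MKI67 and TOP2A were low there, and all 4 hold CCAAT and CHR, while KIF20A, low in all 3 TNF-α libraries, holds CCAAT alone among the letters searched. Both are in capitals in the 200 bases up to the start, and in MKI67 a CHR and a CCAAT box share letters.
CCNB2 (chr15:59104946-59105145, plus strand): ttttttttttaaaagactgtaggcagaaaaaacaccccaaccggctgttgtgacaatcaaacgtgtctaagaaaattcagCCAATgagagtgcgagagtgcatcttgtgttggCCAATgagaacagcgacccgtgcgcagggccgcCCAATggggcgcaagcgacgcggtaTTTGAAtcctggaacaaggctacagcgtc
CDC20 (chr1:43358781-43358980, plus strand): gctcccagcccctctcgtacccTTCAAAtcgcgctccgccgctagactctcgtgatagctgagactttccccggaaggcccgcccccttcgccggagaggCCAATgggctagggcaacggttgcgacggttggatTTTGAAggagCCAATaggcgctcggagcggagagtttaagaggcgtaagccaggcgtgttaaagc
MKI67 (chr10:128126424-128126623, minus strand): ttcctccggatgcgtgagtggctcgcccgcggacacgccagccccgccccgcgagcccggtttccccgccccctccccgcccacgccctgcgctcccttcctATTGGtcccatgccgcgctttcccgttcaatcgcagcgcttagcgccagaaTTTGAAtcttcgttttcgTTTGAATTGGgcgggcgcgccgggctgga
TOP2A (chr17:40417897-40418096, minus strand): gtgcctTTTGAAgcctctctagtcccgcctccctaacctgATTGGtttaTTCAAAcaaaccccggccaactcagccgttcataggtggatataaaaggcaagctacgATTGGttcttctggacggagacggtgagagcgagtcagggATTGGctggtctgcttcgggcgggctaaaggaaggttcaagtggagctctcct
KIF20A (chr5:138178912-138179111, plus strand): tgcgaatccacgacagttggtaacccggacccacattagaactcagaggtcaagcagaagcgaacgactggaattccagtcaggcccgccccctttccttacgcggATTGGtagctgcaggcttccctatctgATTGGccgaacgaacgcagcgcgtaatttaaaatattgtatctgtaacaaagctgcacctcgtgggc

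The direction in replicates 2 and 3 moved with gene length and base composition. Of the 14 genes under 3 kb (merged exon length), 12 were above every NC library in both replicates, whereas all 4 genes over 8 kb (MKI67, CENPF, CDK6 and CENPE) were below. Of the 22 genes with a transcript GC content of 50% or more, 18 were above and 3 below, and of the 27 genes with a lower GC content, 7 were above and 18 below. Across the 49 genes the mean difference of replicates 2 and 3 from NC had a Pearson's r of -0.56 with log2 length and of 0.67 with GC content, and in replicate 1 these were 0.35 and -0.06. These correlations are across genes of the same libraries, which are not independent replicates. Over all genes tested the r for replicates 2 and 3 had the same signs and were weaker, -0.27 with log2 length and 0.43 with GC content. By length, 2254 of 3518 of all genes under 3 kb were above NC in both replicates, and 1721 of 2369 over 8 kb were below. Counts by GC content were not made over all genes. Without regard to length or GC content, 46.1% of all genes were above and 40.8% below. The G2/M genes include both the short, GC-rich AURKB, UBE2C and CDC20 and the long, AT-rich CENPE, CENPF and TOP2A.

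**Figure D4:**
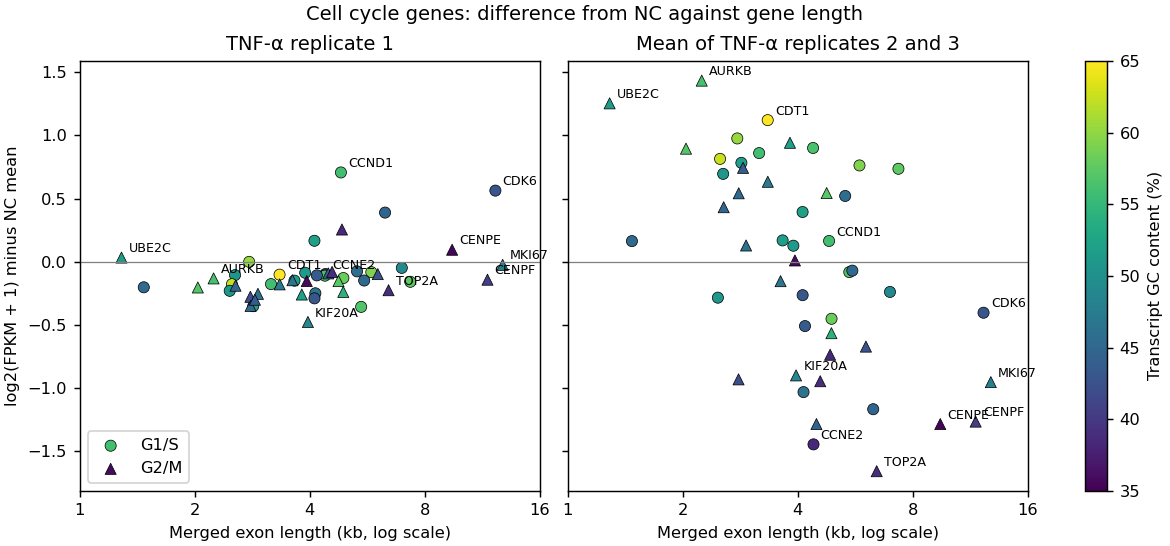
Difference of log2(FPKM + 1) from the NC mean against merged exon length (log scale) for the 49 tested genes, in TNF-α replicate 1 (left) and as the mean of TNF-α replicates 2 and 3 (right). Circles are G1/S genes, triangles are G2/M genes, and colour gives the GC content of the transcripts in percent. On the right the points run from short, GC-rich genes above 0 to long, AT-rich genes below 0 (r = -0.56 with log2 length), and on the left most points lie just below 0.

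A correction for transcript GC content and length, fitted over all genes in each library, left 0 of the 49 genes past the threshold, where 2.23% of all genes passed (1.38% higher, 0.849% lower). The correction brought the 3 TNF-α libraries closer together for the G1/S median and not for the G2/M median. After it, the median difference from NC was -0.13, -0.09 and -0.10 in TNF-α replicates 1 to 3 for the G1/S genes and -0.18, -0.28 and -0.26 for the G2/M genes, while all genes were at -0.02, 0.01 and 0.01. Before it, the G1/S medians had been -0.11, 0.15 and 0.15 and the G2/M medians -0.15, -0.12 and -0.19. MYBL2 went from a log2 fold change of 0.65 to 0.04, CDT1 from 0.71 to 0.05, and E2F1 from 0.48 to -0.19. KIF20A went from -0.76 to -0.92 (limma adjusted p = 0.0803), FOXM1 from -0.46 to -0.69, and CCNA2 from -0.71 to -0.81, so that these 3 genes lay farther below NC than before. Other lower genes moved toward NC, such as MKI67 (-0.64 to -0.24), CENPF (-0.89 to -0.42) and TOP2A (-1.18 to -0.80). UBE2C and AURKB stayed higher (0.85 to 0.47 and 0.91 to 0.41), and RRM2 went from 0.32 to 0.43. The fit removed the trends over all genes and not within the 49. Across the 49 genes the corrected mean difference of replicates 2 and 3 still had an r of -0.23 with log2 length and 0.30 with GC content. Length and GC content moved with the values in replicates 2 and 3, and what part of each gene's difference they account for was not tested beyond this fit.

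**Figure D5:**
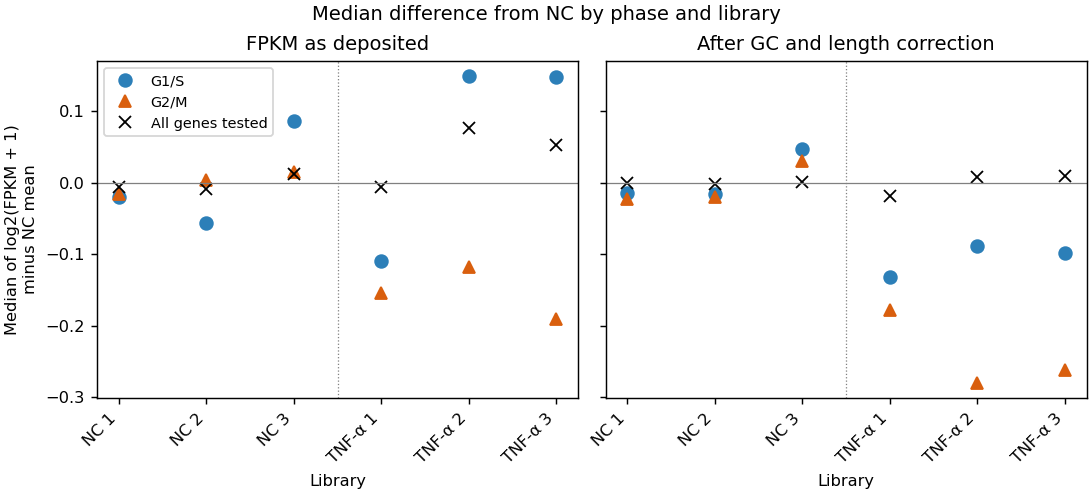
Median difference of log2(FPKM + 1) from the NC mean in each library for the G1/S genes (circles), the G2/M genes (triangles) and all genes tested (crosses), with FPKM as deposited (left) and after the correction (right). On the left, on the FPKM scale, the G1/S median is below 0 in TNF-α replicate 1 and above 0 in replicates 2 and 3, and on the right both phases are below 0 and below all genes in the 3 TNF-α libraries.

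What was called depended on which TNF-α libraries entered. Without TNF-α replicate 1, 40 of the 49 genes passed the threshold, 20 higher and 20 lower, but so did 79.4% of all genes (42.6% higher, 36.8% lower). With the correction and without that library, 42 passed, 16 higher and 26 lower, against 73.4% of all genes (37.6% higher, 35.8% lower). With TNF-α replicate 1 alone against the NC libraries, a fit in which the lone library is assumed to vary like the NC libraries, 5 genes passed against a background of 6.03% (3.7% higher, 2.33% lower). These were CCND1 (log2 fold change 0.71, limma adjusted p = 0.00432), CDK6 (0.56, adjusted p = 0.0119) and E2F7 (0.39, adjusted p = 0.0436), which were higher, and KIF20A (-0.48, adjusted p = 0.0134) and CCNB2 (-0.35, adjusted p = 0.0423), which were lower. KIF20A was the only one of these that was lower past the threshold in both fits, with -0.90 without replicate 1. CDK6 and E2F7 had the opposite sign without replicate 1 (-0.40 and -1.17), as did CCNB2 (0.54). With the correction and without replicate 1, CDK6 was higher (0.29, limma adjusted p = 0.00302) and CCND1 was lower (-0.26, limma adjusted p = 0.00264), each against its sign in the fit of deposited FPKM without that library. After the correction CDK6 was above the NC mean in all 3 TNF-α libraries, by 0.54, 0.34 and 0.24 on the log2 scale, and CCND1 was above it in replicate 1 (0.69) and below it in replicates 2 and 3 (-0.31 and -0.22). Of the 34 genes followed through all 20 settings, 12 were lower in each one (CCNE2, E2F2, E2F8, MCM2, MCM4, MCM6, BUB1B, CCNA2, CENPF, FOXM1, MKI67 and TOP2A). UBE2C was higher in each one, while the other 21 of the 34 changed sign at least once. The rest of the 49 genes, among them KIF20A, BUB1, RRM1 and TYMS, were not followed in this way. Their absence from these lists thus does not mean that they changed sign. The same count was not made over all genes. The settings were also not even between the signs, since the median of all genes was -0.42 as TPM and -0.21 with limma-voom. A value lower in each setting was thus easier to reach than a higher one.

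The inhibitors of the CDKs were read from a list of 8 genes, of which 4 could be tested. CDKN1A, which codes for p21, was the only one of them above NC in every TNF-α library, with 30.5, 29.9 and 30.6 FPKM in NC and 45.7, 88.9 and 81.1 FPKM in TNF-α replicates 1 to 3 (log2 fold change 1.16, SE 0.27, limma adjusted p = 0.146). After the GC and length correction its log2 fold change was 0.60 and passed the threshold (limma adjusted p = 0.0275), where 2.23% of all genes passed. It also passed after quantile normalization (0.74, limma adjusted p = 0.0478), but not as TPM (0.68, limma adjusted p = 0.10) or with limma-voom (0.92, adjusted p = 0.126). With TNF-α replicate 1 alone the log2 fold change of CDKN1A was 0.58. Without that library it was 1.45 (limma adjusted p = 9.46e-06), in a fit where 79.4% of all genes passed. CDKN1B, which codes for p27, had 16.2, 17.2 and 15.3 FPKM in NC and 14.8, 9.65 and 12.3 in TNF-α, below NC in each library (log2 fold change -0.40, SE 0.18, limma adjusted p = 0.195). CDKN2D and CDKN3 followed the library split, with log2 fold changes of 0.48 and 0.33. The INK4 genes CDKN2B and CDKN2C had no read in any library and CDKN2A had 1 read in 1 NC library, and CDKN1C, with 8 to 28 reads, was under the filter.

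No gene passed in the other 6 lists of the same machinery in all 6 libraries. At an unadjusted p under 0.05, to which the counts below refer, 12.3% of all genes were higher and 11.9% lower. Of 13 tested genes of the RB family, further E2F factors and the DREAM complex, 1 was higher and 3 were lower (median log2 fold change -0.38), and the pocket proteins RB1 and RBL2 had values of -1.03 (SE 0.45) and -1.27 (SE 0.45). Among 46 further replication factors there were 2 higher and 4 lower (median -0.06), with CLSPN, a mediator of the replication checkpoint, at -1.28 and POLA2, a subunit of the priming polymerase, at 0.94. The 13 checkpoint kinases and CDK regulators had 1 lower gene, ATM, and 0 higher (median 0.16, with 8 of the 13 above 0). The largest log2 fold changes of this list were -1.001 (ATM) and 0.75 (CKS2). Of 41 other spindle and kinetochore genes 10 were lower and none higher (median -0.31). ASPM and KNL1 had the most negative values there, -1.29 and -1.21. The most positive was 0.83 (CENPM, chosen after its values were seen), and 13 of the 41 were above 0. In TNF-α replicate 1 alone the log2 differences from the NC mean were 0.05 (RB1), -0.17 (RBL2), 0.006 (CLSPN), -0.09 (POLA2), -0.03 (ATM), -0.20 (CKS2), -0.08 (ASPM) and -0.11 (KNL1). After the GC and length correction the log2 fold changes over all 6 libraries were -0.67, -0.925, -1.12, 0.85, -0.39, 0.58, -0.78 and -0.71 in the same order.

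Condensin and cohesin, the ring complexes that compact and hold chromosomes, had the lowest median of the 7 lists. Of 13 genes 10 were lower and 1 higher at an unadjusted p under 0.05 (median -0.73), beside 11.9% and 12.3% of all genes, and SMC4 had 44.7, 48.9 and 46.8 FPKM in NC and 48.5, 3.93 and 5.99 in TNF-α replicates 1 to 3. The values of SMC4 in replicate 1 lay within the NC range, and the median of the list was -0.09 in that library, against -1.17 and -1.001 in replicates 2 and 3. The anaphase-promoting complex and its regulators gave 1 higher gene of 15 tested, against 12.3% of all genes, and a median of 0.33, with ANAPC11 at 0.99 and CDC26 at 0.79. In replicates 2 and 3, 10 of the 15 were above every NC library and 4 were below (ANAPC1, CDC23, CDC27 and FBXO5), against 46.1% and 40.8% of all genes. The median length of the condensin and cohesin genes was 6.49 kb and that of the complex 4.62 kb, next to 4.64 kb for all genes tested.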

How the data were processed

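RNA-seq of U251 cells was analysed in 6 libraries, grouped by their titles. Per the labels, RNA was purified on Qiagen columns after lysis in TRIzol, poly(A) RNA was selected, and libraries were made with a NEBNext Ultra kit. The authors deposited gene FPKM without log transformation or pooling. The submitters' processing notes name HISAT2 2.0.5, StringTie 1.3.3b, featureCounts 1.5.0, DESeq2, edgeR and GATK 3.7 with no role, and the use of strand in counting was not given in the sources used here. All 58735 genes matched GENCODE 29 (GRCh38) in identifier, name, position and merged exon length. The table held 6 further columns of values that belong to no sample described here and were not used. Multiplied by gene length and a factor per library, 100% of the values gave whole reads within 0.01 read, so that depth was known. FPKM per library divides by a scaled total, and its ratio to the reads in genes was 0.925 to 0.959 in the NC libraries and TNF-α replicate 1 and 0.693 and 0.759 in TNF-α replicates 2 and 3.

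Expression was taken as log2(FPKM + 1), a pseudocount of 1, which understates changes of low genes. The groups were compared with limma 3.58.1 in R 4.3.3 (eBayes with a trend, two-sided), with Benjamini-Hochberg adjustment over all 12136 genes tested. The fit was tested on simulated counts drawn from the NC means. These counts had no trend with length or GC content in any library. The simulation therefore does not cover the split of TNF-α replicates 2 and 3 from the other libraries. Change and test are given for cyclins, CDKs, E2F factors, MCM genes and other standard markers, for the 5 genes of each phase and the 2 of each further list with the largest change, and for all CDK inhibitors. Other genes with a change and a test were chosen after their values were seen. The 50 members, the 11 gene lists and the tests were chosen with earlier results of these data known. The correction subtracted natural splines of GC content and log2 length (5 degrees of freedom each, with their products) from each library's log2 ratios. The replicate numbers were not used as pairs in the main fit, and whether same-numbered NC and TNF-α libraries were paired could not be decided. Tables were made with Python 3.11.15, pandas 2.3.3 and numpy 2.4.6, and plots with matplotlib 3.10.9.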

Additional observations from a re-analysis of the deposited data

How the results depend on the processing

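In all 6 libraries none of the 49 genes passed under any of the other scalings, filters, pseudocounts or variance settings, or without any single NC library or TNF-α replicate 2 or 3. The members that passed numbered 0 to 20 of the G1/S and 0 to 20 of the G2/M genes when 1 library at a time was left out, and the upper value came from leaving out TNF-α replicate 1. Settings that leave out TNF-α replicates 2 and 3 together, or that combine the correction with leaving out replicate 1, were chosen after seeing the data, and gave 3 and 2, and 21 and 21. The deviations of same-numbered libraries from their group means correlated at -0.0144, -0.178 and 0.124. In the TNF-α group these deviations hold the split of replicate 1 from replicates 2 and 3. The check therefore cannot decide whether the replicate numbers pair the libraries. With the replicate number as a block 24 genes of all tested passed, 45 with the block and the correction together, and no member in either. No interval can be given beyond the spread of 3 libraries, and PCR duplicates are not covered by the read counts.

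The 123 genes of all tested that passed became 58 without a filter, 79 with a filter of FPKM 5, 58 as TPM, 185 after quantile normalization, 77 with limma-voom on recovered reads, 270 after the correction, 732 without TNF-α replicates 2 and 3, 8904 with the correction and without TNF-α replicate 1, and 10 to 9630 when 1 library was left out, the highest without TNF-α replicate 1.

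TPM shifted the median of all genes to -0.42 and limma-voom shifted it to -0.21. Relative to that median the G1/S and G2/M medians were -0.02 and -0.24 as TPM and 0.01 and -0.21 with limma-voom, against 0.02 and -0.19 in the values reported. Unadjusted, they were -0.44 and -0.66 as TPM, -0.22 and -0.73 after quantile normalization, -0.21 and -0.42 with limma-voom, -0.12 and -0.27 with the correction and without TNF-α replicate 1, and -0.20 for G2/M after median centring. Without TNF-α replicates 2 and 3 the G1/S median was -0.11. As TPM the list medians were -0.088 (CDK inhibitors), -0.88 (RB, E2F and DREAM), -0.54 (replication factors), -0.26 (checkpoint), -0.81 (spindle) and -0.14 (anaphase-promoting complex). With limma-voom they were -0.78 (RB, E2F and DREAM), -0.33 (replication factors), -0.033 (checkpoint) and -0.59 (spindle), and after quantile normalization -0.13 (replication factors) and -0.55 (spindle). Without TNF-α replicates 2 and 3 they were -0.13 (CDK inhibitors), -0.007 (RB, E2F and DREAM), -0.033 (checkpoint), -0.085 (condensin and cohesin) and -0.045 (anaphase-promoting complex). The replication factors were at -0.0017 with the correction and without TNF-α replicate 1 and at -0.073 to 0.0033 when 1 library was left out.

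Single genes changed sign, and the cause was not tested. As TPM the log2 fold changes were CCND1 -0.16, CCND3 -0.013, CCNE1 -0.028, CDK2 -0.44, CDC25A -0.17, E2F1 -0.012, MCM3 -0.44, MCM5 -0.0497, PCNA -0.46, CCNB1 -0.28, CDC25C -0.10, PLK1 -0.19, AURKA -0.50, CDKN2D -0.011 and CDKN3 -0.17. After quantile normalization they were CCND1 -0.25, CDK2 -0.19, MCM3 -0.47, MCM7 -0.072, PCNA -0.53, CCNB1 -0.43, PLK1 -0.17, AURKA -0.55 and CDKN3 -0.011. With limma-voom they were CDK2 -0.21, MCM3 -0.20, PCNA -0.23, CCNB1 -0.0401 and AURKA -0.26, and after median centring PCNA -0.0059 and AURKA -0.046. After the correction, with and without the replicate block, they were CDK6 0.37, CDK2 -0.17, E2F1 -0.19, MCM3 -0.21, PCNA -0.22, CDK1 0.11, PLK1 -0.026, AURKA -0.18 and CDKN2D -0.15. With the correction and without TNF-α replicate 1 they were CCND1 -0.26, CDK6 0.29, CDK2 -0.22, E2F1 -0.19, MCM3 -0.24, PCNA -0.22, CDK1 0.28, AURKA -0.14 and CDKN2D -0.16. Without TNF-α replicates 2 and 3 they were CCND3 -0.083, CDK4 -0.18, CDK6 0.56, CCNE1 -0.11, CDK2 -0.088, E2F1 -0.18, E2F7 0.39, MYBL2 -0.0013, CDT1 -0.10, MCM3 -0.15, MCM5 -0.16, MCM7 -0.11, PCNA -0.20, CCNB1 -0.19, CDC25C -0.18, PLK1 -0.15, AURKA -0.25, AURKB -0.13, CDKN2D -0.17, CDKN3 -0.15, RB1 0.048, CLSPN 0.0056, POLA2 -0.0897, CKS2 -0.20, SMC4 0.053, ANAPC11 -0.17 and CDC26 -0.087. When 1 library was left out, CDK6 ranged from -0.40 to 0.093, MCM3 from -0.010 to 0.17, PCNA from -0.037 to 0.16, CDK1 from -0.085 to 0.0101 and AURKA from -0.071 to 0.13.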
